A study of Drosophila melanogaster with 2 samples.

Results

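The genes of the SUMO pathway described here are Sumo, Aos1, Uba2, lwr, Su(var)2-10, Ulp1 and velo, 7 of the 13945 protein-coding genes annotated on the chromosomes that held called regions. They were chosen by name, after the signal of the region at Sumo in these data had been noted as high, so the value at Sumo is given as a description and nothing is supported with it. Each gene was set against the regions called in a ChIP-seq experiment on CG42726, a protein-coding gene known by its number. A gene was counted as having a region when the summit of a called region, its highest point, lay within 1 kb of any annotated start of the gene.

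SUMO is a small ubiquitin-like protein that is joined to lysines of other proteins and changes their partners, location or stability. It is activated by a heterodimeric E1 enzyme (Aos1 with Uba2), passed to a single E2 (lwr, the fly Ubc9), often placed with the help of an E3 ligase such as the PIAS protein Su(var)2-10, and removed by proteases of the Ulp family. In the Drosophila embryo the pathway is supplied by the mother and is known for its part in patterning, in the cell cycle and in chromatin silencing.

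The data are from 1 group of 2 biological replicates, both of whole Drosophila melanogaster embryos aged 0 to 24 hours from a single transgenic line, in which CG42726 is expressed as a fusion to enhanced green fluorescent protein (eGFP). Chromatin bound by the fusion was precipitated with an anti-GFP antibody. The labels do not name the promoter of the transgene or say whether an untagged copy of CG42726 was present, and a control precipitation was not analysed here. The embryos hold all stages of that day and all cell types, so a region used by few cells and one occupied weakly in many cannot be told apart. With 1 group, no groups were compared and no test was made. The files hold regions, each with the authors' signal value, but no read counts, and depth is therefore unknown for both replicates. The main list, of regions that passed a limit on the irreproducible discovery rate (IDR, the share of regions expected not to repeat) of 0.01 between the replicates, held 2752 regions with a median signal of 102. There were 4044 regions in the list made from pooled reads. The list of replicate 1 had 2803 regions with a median signal of 62.3, and that of replicate 2 had 1629 with a median of 59.6. Signals and ranks are read only within a list, and the ratios of replicate 1 to replicate 2 are set against their spread over all main-list regions.

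The sequences at the starts of the genes are shown first because the pathway's region of highest signal, at Sumo, held as many matches of a short motif as any region in the main list. Each runs from 70 bases before the annotated start to 30 bases from it on, 5′ to 3′ on the gene's own strand, from the RefSeq sequence of the dm6 assembly. Capitals mark CGATA, or TATCG where the motif lies on the other strand. For velo the start shown is the internal one that had a region in both replicates. Aos1 and Uba2 are shown as the genes without a called region. Su(var)2-10, which had a called region, is not shown, and its first start has 1 match within 50 bp.
Sumo, chr2L:6967615-6967714, minus strand: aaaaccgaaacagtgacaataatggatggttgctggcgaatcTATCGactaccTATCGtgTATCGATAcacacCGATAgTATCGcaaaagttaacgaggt
lwr, chr2L:542551-542650, minus strand: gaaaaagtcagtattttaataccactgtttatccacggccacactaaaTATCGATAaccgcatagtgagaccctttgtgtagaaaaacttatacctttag
Ulp1, chrX:19208158-19208257, minus strand: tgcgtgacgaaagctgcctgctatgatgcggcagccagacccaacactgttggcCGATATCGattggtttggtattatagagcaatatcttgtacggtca
velo, chr3L:6747226-6747325, minus strand: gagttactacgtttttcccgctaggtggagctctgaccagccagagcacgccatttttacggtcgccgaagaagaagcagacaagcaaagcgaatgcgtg
Aos1, chr3R:12433793-12433892, minus strand: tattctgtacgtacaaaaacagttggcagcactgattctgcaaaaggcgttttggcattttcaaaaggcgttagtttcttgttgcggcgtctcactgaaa
Uba2, chr3L:8127789-8127888, minus strand: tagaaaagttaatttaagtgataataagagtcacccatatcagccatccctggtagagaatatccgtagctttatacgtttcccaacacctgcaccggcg

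CGATA was searched for on both strands after the data had been seen, because it is shared by the 8-base sequences with the largest excess at summits over flanking sequence, outside the pathway. TATCGATA holds the motif on each strand, so its overlapping pair counts as 2 matches. Around the start of Sumo there were 6 matches. Counting the start as base 1, with no base 0, their first bases lay at −28, −17, −10, −7, 4 and 10, and those at −10 and −7 overlapped within TATCGATA. At lwr 2 matches overlapped in the same way, at −22 and −19, and at Ulp1 2 overlapped in the opposite order, at −16 and −13. The printed windows of velo, Aos1 and Uba2 held 0 matches. CGATA lay within 50 bp of a start in 30.2% of all protein-coding genes, in 53.2% of those with a region in the main list and in 24.3% of those without. The motif came from summits of this same list, so a higher share among genes with a region was partly built in. A match is a description of the letters and says nothing by itself of which protein was bound.

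Within 50 bp of the summit, the Sumo region held 6 CGATA matches, a number reached in 7 of the 2747 main-list regions on named chromosomes (0.255%), Sumo included. The count stayed at 6 within 100 bp and around the summit of each replicate taken alone. The lwr and Ulp1 summits held 2 matches each, a number reached or exceeded in 28.6% of regions. The Su(var)2-10 summit and a second, weak region upstream of Sumo held 1 each, and 42.6% of regions held at least 1. The 3 velo regions held 0.

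Of the 5 8-base sequences with that largest excess, at least 1 was found at 4 of the 8 member regions, those at the starts of Sumo, lwr, Su(var)2-10 and Ulp1, beside 22.9% of all main-list regions. Aos1 and Uba2 have no region to search. TATCGATA, the DNA replication-related element (DRE), was at the summits of Sumo and lwr and at 12.6% of all regions, and within 50 bp of a start in 6.07% of all genes. ATATCGAT, which can overlap the DRE by all but 1 base, was at lwr and Ulp1 and at 8.99% of all regions. ATCGATAG and ACTATCGA, which overlap each other, were both at Su(var)2-10, and were at 13.5% and 8.45% of all regions. CATCGATA was at none of the members and at 7.32% of all regions. Other core promoter and promoter-proximal sequences were too few among these genes to set apart from their share elsewhere. The E-box CAGCTG was at 1 velo summit (7.24% of regions), TATAAA was within 50 bp of the start of Uba2 (20.4% of genes) and at none of the member summits (7.03% of regions), and GGTCACAC, CACGTG and GAGAGAG were at none (4.51%, 1.93% and 1.82% of regions).

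In the main list 5 of the 7 genes had a region: Sumo (the modifier), lwr (the E2), Su(var)2-10 (an E3), and Ulp1 and velo (proteases). Aos1 and Uba2, the subunits of the E1, had none. The share was 71.4%, beside 20.6% of all protein-coding genes. Sumo prompted the choice of the list. Without it, 4 of the other 6 genes (66.7%) had a region in the main list, and nothing is read from the counts that include it. In the pooled list the same 5 genes had a region, beside 27.3% of all genes. That list shares its pooled-read signals with the main list, and 2566 of the 2752 main regions stand in it unaltered, so it is no second measurement. Replicate 1 alone again gave these 5 genes, beside 21.9% of all genes. In replicate 2, the shorter list, 3 of the 7 had a region (Sumo, Su(var)2-10 and velo), beside 12.7% of all genes. Without Sumo the counts were 4 of 6 in the pooled list and in replicate 1, and 2 of 6 in replicate 2. The 5 genes held 8 regions in the main list, and for each of these the nearest annotated start was that of the pathway gene itself.

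**Figure D1:**
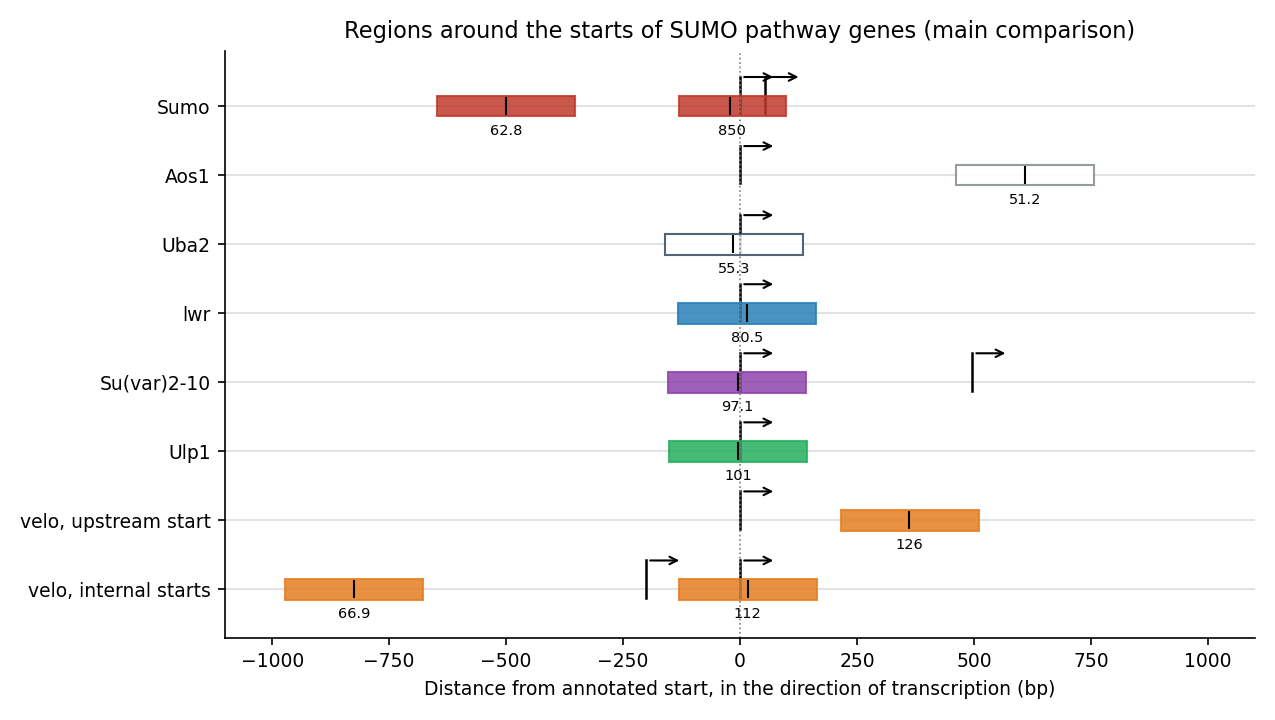
Position of regions around the annotated starts of the 7 genes in the comparison between replicates; the horizontal axis is the distance from the start in bp in the direction of transcription, boxes are regions, black ticks in them summits, bent arrows starts, and the number under each box the authors' signal. Filled boxes passed the IDR limit, while the open boxes of Aos1 and Uba2 are the strongest ranked regions that did not. The summits at Sumo, lwr, Su(var)2-10, Ulp1 and an internal velo start lie within 21 bp of a start.

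Sumo (FBgn0264922), the gene of the modifier, lies on 2L from 6966780 to 6967644 on the minus strand, with annotated starts at 6967644 and 6967590. Its region, at 6967546 to 6967775, had its summit 21 bp upstream of the first of these. The signal was 465 in replicate 1 and 391 in replicate 2, where it ranked 8 of 2803 and 6 of 1629. These values were 7.46 times and 6.55 times the median of each replicate's list, and replicate 1 over replicate 2 gave 1.19. In the main list the signal was 849.6, rank 6 of 2752 and 8.29 times the median. The region was narrower than most, as were others of similar signal. It spanned 230 bp, where the usual width of the list was 296 bp and 8.14% of regions were narrower than that. Of the regions next to it by signal, those at MESK2, Rpn6, Daxx, Pym and jagn spanned 209 to 276 bp, and that at Kr-h1 336 bp. The summits of the replicates fell 2 bp and 9 bp from that of the main list. No other gene starts close by, since the nearest lies 3169 bp from a Sumo start.

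Among the 3 regions just above Sumo and the 3 just below it in the main list, the order changed between replicates for the near ones. Above it were regions nearest to Kr-h1 (signal 2843), MESK2 (1426) and Rpn6 (901), and below it Daxx (771), Pym (736) and jagn (692). In replicate 1, Daxx (469) and Pym (480) stood above Sumo, while in replicate 2 Sumo stood above Rpn6 (338), Daxx (320) and Pym (255). Kr-h1 and MESK2 stood above Sumo in both replicates, and jagn below it in both (448 in replicate 1 and 266 in replicate 2). The position of Sumo relative to Rpn6, Daxx and Pym thus differed between the replicates.

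A second region near Sumo, at 6967996 to 6968291, was much weaker. Its summit lay 500 bp upstream in intergenic sequence, with a signal of 62.8 in the main list, rank 2565. It had 57.4 in replicate 1, where it passed, and 31.8 in replicate 2, where its IDR of 0.0485 did not. The strongest and the weakest of the members' 8 main-list regions were therefore both upstream of the same gene.

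**Figure D2:**
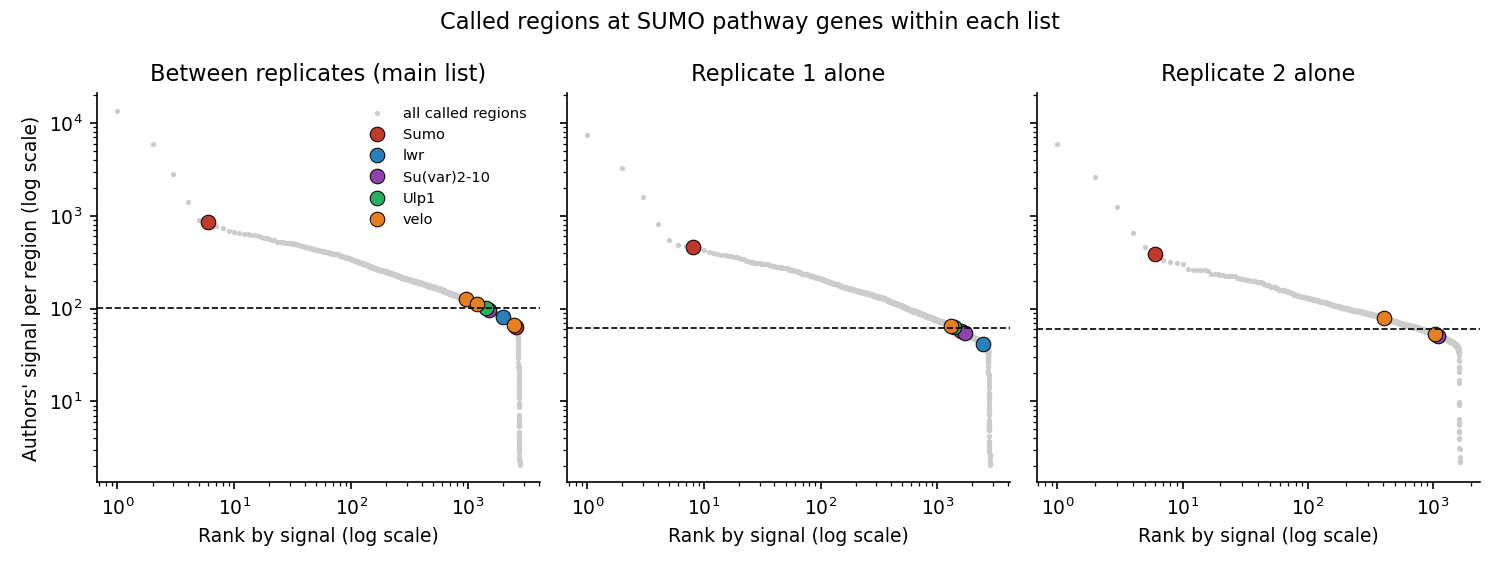
Signal of each called region (vertical axis, the authors' value, log scale) against its rank (horizontal axis, log scale) in the main list and in each replicate's list; grey points are all regions, coloured points those within 1 kb of a start of a SUMO pathway gene, and the dashed line is the median of the list. One Sumo region stands at rank 6, 8 and 6 in the 3 panels, while the remaining member regions lie at no more than 1.33 times the median.

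For the E1 subunits no region passed in any of the 4 lists. Aos1 (FBgn0029512) lies on 3R from 12432533 to 12433822 on the minus strand, and the start of Srlp, transcribed the other way, is 276 bp from its own. The nearest summit in the main list was 20086 bp away. Among all ranked regions, the strongest within 1 kb lay 609 bp downstream in the coding exon, with a signal of 51.2 and an IDR of 0.0405, and 4.93% of the 140257 ranked regions were higher. At the start itself, 7 bp downstream, the ranked signal was 8.46. The strongest ranked signal near Aos1 was 28.3 in replicate 1 and 24.0 in replicate 2, with IDRs of 0.177 and 0.555.

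Uba2 (FBgn0029113), the catalytic subunit of the E1, lies on 3L from 8125327 to 8127818 on the minus strand, and its start is 56 bp from that of Cds, transcribed the other way. Unlike Aos1 it had its strongest ranked region at the start, 14 bp upstream, so a region there could belong to either gene. The signal was 31.1 in replicate 1 and 21.7 in replicate 2, with IDRs of 0.107 and 0.106. Between replicates it was 55.3 with an IDR of 0.0573, and 3.81% of ranked regions were higher. On pooled reads the IDR was 0.0188, the nearest of the Uba2 values to the limit of 0.01. The nearest summit that passed in the main list was 61755 bp away.

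lwr (FBgn0010602), the gene of the E2, lies on 2L from 540599 to 542580 on the minus strand. Its region, at 542418 to 542713, had its summit 14 bp downstream of the start in the 5′ UTR. The signal was 41.8 in replicate 1, where it passed with an IDR of 0.00401, and 39.1 in replicate 2, where it did not with an IDR of 0.0185. The 2 IDRs thus lay on either side of the limit. Replicate 1 over replicate 2 gave 1.07, where the median over all main-list regions was 1.30. In the main list the signal was 80.5, rank 1975 and 0.786 times the median. lwr was the weakest of the 5 genes with a region.

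Su(var)2-10 (FBgn0003612), the gene of an E3 ligase, is on the plus strand of 2R, between 9116122 and 9122000. Its region, at 9115969 to 9116264, had its summit 5 bp upstream of the first start. The signal was 54.6 in replicate 1 and 51.1 in replicate 2, and both passed. In the main list it was 97.1, rank 1501 and 0.948 times the median. A second annotated start, at 9116618, had only a ranked region, with a signal of 34.7, that did not pass.

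Ulp1 (FBgn0027603), a SUMO protease whose yeast counterpart also matures the SUMO precursor, lies on X from 19202103 to 19208187 on the minus strand. Its region, at 19208043 to 19208338, had its summit 4 bp upstream of the start. The signal was 62.6 in replicate 1, where it passed, and 46.1 in replicate 2, where its IDR of 0.0163 did not. In the main list it was 101, rank 1417 and 0.984 times the median.

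velo (FBgn0035713), a second protease gene of the Ulp family, lies on 3L from 6744426 to 6752752 on the minus strand and has 3 annotated starts. It had 3 regions in the main list, more than any other of the 7 genes, and they differed between replicates. The region at 6747091 to 6747386, with its summit 16 bp downstream of the internal start at 6747255, had signals of 64.8 in replicate 1 and 52.9 in replicate 2, passed in both, and had 112 in the main list. The region at 6752242 to 6752537 had its summit 362 bp downstream of the upstream start, at 6752752, in the 5′ UTR. It had the higher main-list signal, 126, but its signal was 38.4 in replicate 1 and 79.1 in replicate 2. In replicate 1 its IDR of 0.0104 fell just outside the limit, and the ratio of 0.485 was the lowest of the 8 member regions. The start of Sbds, transcribed the other way, is 161 bp from this velo start. The remaining region, at 6747933 to 6748228 in a coding exon, had its summit 625 bp upstream of the internal start at 6747456, the farthest from a start among the member regions. It had 66.9 in the main list, and 34.0 in replicate 1 and 31.7 in replicate 2, where neither passed.

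**Figure D3:**
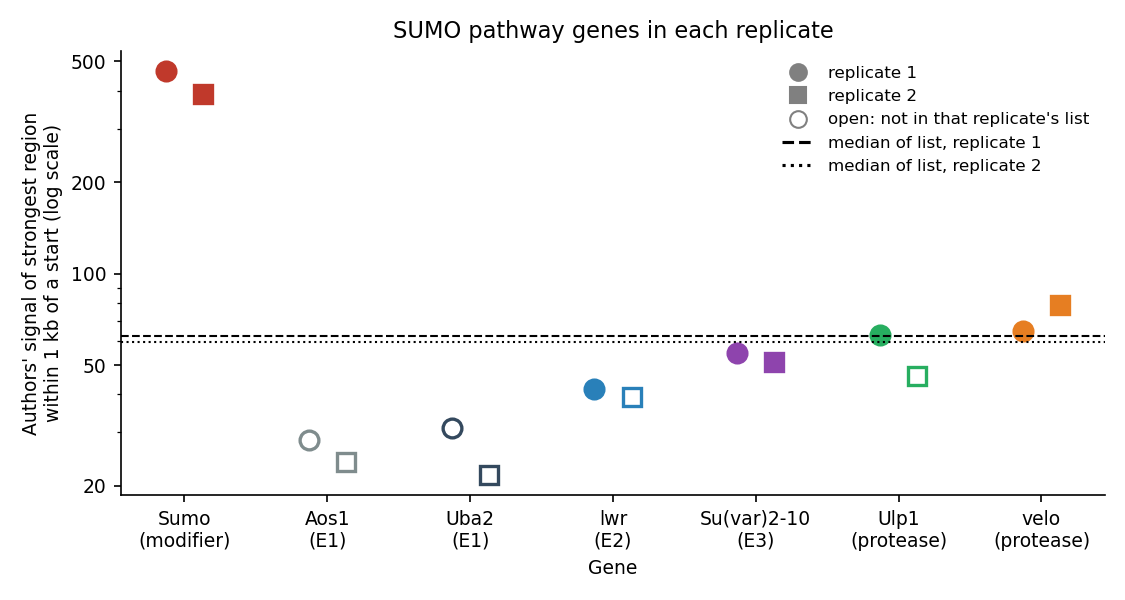
Signal of the strongest region within 1 kb of a start (vertical axis, the authors' value, log scale) for each gene in replicate 1 (circles) and replicate 2 (squares); open symbols are ranked regions that did not pass in that replicate, and the lines are the medians of each replicate's called regions. Sumo lies at 465 and 391, while the other genes lie between 21.7 and 79.1.

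Ordered by the strongest region of each gene, Sumo came first in both replicates and velo next, and lwr was the lowest of the 5 genes with a main-list region. Ulp1 and Su(var)2-10 changed places: Ulp1 was higher in replicate 1 (62.6 and 54.6) and Su(var)2-10 in replicate 2 (51.1 and 46.1). Aos1 and Uba2 changed places too, at the low end. The order of these neighbours is therefore within the spread between replicates. Sumo was noted beforehand for its high signal in these data, so nothing is read from its first place. Over the 8 member regions, replicate 1 over replicate 2 had a median of 1.13, from 0.485 to 1.81. Over the 2728 main-list regions with a value in each replicate the median was 1.30, and the 5th and 95th percentiles were 0.685 and 2.51, so none of the members but the velo region at the upstream start lay outside that span.

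Of 9 other genes of the SUMO pathway, 3 had a region in the main list, and all 3 had a signal above its median. Nup358, whose mammalian counterpart RanBP2 is a SUMO E3 ligase of the nuclear pore, had signals of 265 in replicate 1 and 151 in replicate 2, and 424 in the main list at 50 bp upstream of its start, rank 52. That was the next highest value to Sumo among the pathway genes listed here. dgrn, a ubiquitin ligase that recognises SUMO-modified proteins, had 116 in replicate 1, 49.2 in replicate 2 and 165 in the main list. The start of Sec20 lies nearer to the dgrn summit than that of dgrn itself, so the region is counted for both. tna, an SP-RING protein of the kind that includes PIAS ligases, had 84.7 in replicate 1, 78.0 in replicate 2 and 164 in the main list. The share of 3 in 9 stands beside 20.6% of all genes. In the pooled list cerv and pira also had a region, and in replicate 1 alone Rad60 and pira did. cerv, whose region was just outside the main list, had a signal of 64.2 there with an IDR of 0.0118.

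Among 17 genes of other ubiquitin-like conjugation systems, 9 had a region in the main list, again beside 20.6% of all genes. They came from several systems and include Uba1 (the ubiquitin E1), Nedd8, Uba3 and Den1 (the Nedd8 modifier, a subunit of its E1 and a protease), Ufc1 (the E2 of Ufm1), and Atg8a and Atg3 (a modifier of autophagy and its E2). Den1 passed in the main list alone, with an IDR of 0.00986, and not in the pooled list or that of either replicate. The signals of these 9 genes were lower than that of Sumo, which was noted beforehand for its high signal, so nothing is read from that. The highest was that of Nedd8, with 153 in replicate 1, 48.2 in replicate 2 and 205 in the main list, rank 317. Ufc1 had 139, and the strongest regions of the other 7 lay between 68.2 and 90.0, under the median of 102. The E1 genes of this list were mixed. Some had a region, among them Uba1 and Uba3, with signals of 82.8 and 74.3. Others, APP-BP1, Uba4 and Atg7, had none, as was so for the E1 subunits of the SUMO pathway. Whether the lists differ was not tested.

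Over the whole main list, regions with more CGATA matches at the summit had a higher median signal up to 3 matches. The 1577 regions with 0 matches had a median of 88.2, the 385 with 1 had 111, the 366 with 2 had 137 and the 249 with 3 had 169. The 126 regions with 4 had 150 and the 44 with 5 or more had 180, where the Sumo region was the highest. Sumo was noted beforehand for its high signal, so nothing is read from that place. The signals varied widely at a given number of matches. The 3 highest signals of the list, 13437, 5917 and 2843, were at regions with 0 matches. A region with 6 matches, as many as Sumo, had 92.2, below the list median of 102. Among the members, lwr and Ulp1 were below the median of regions with 2 matches, and Su(var)2-10 and the second Sumo region (62.8) were below that of regions with 1. Of the velo regions, those at the upstream and internal starts, with 126 and 112, were above the median of regions with 0, and that in the coding exon, with 66.9, was below it. The relation between matches and signal is across regions of 1 experiment, which are not independent replicates.

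**Figure D4:**
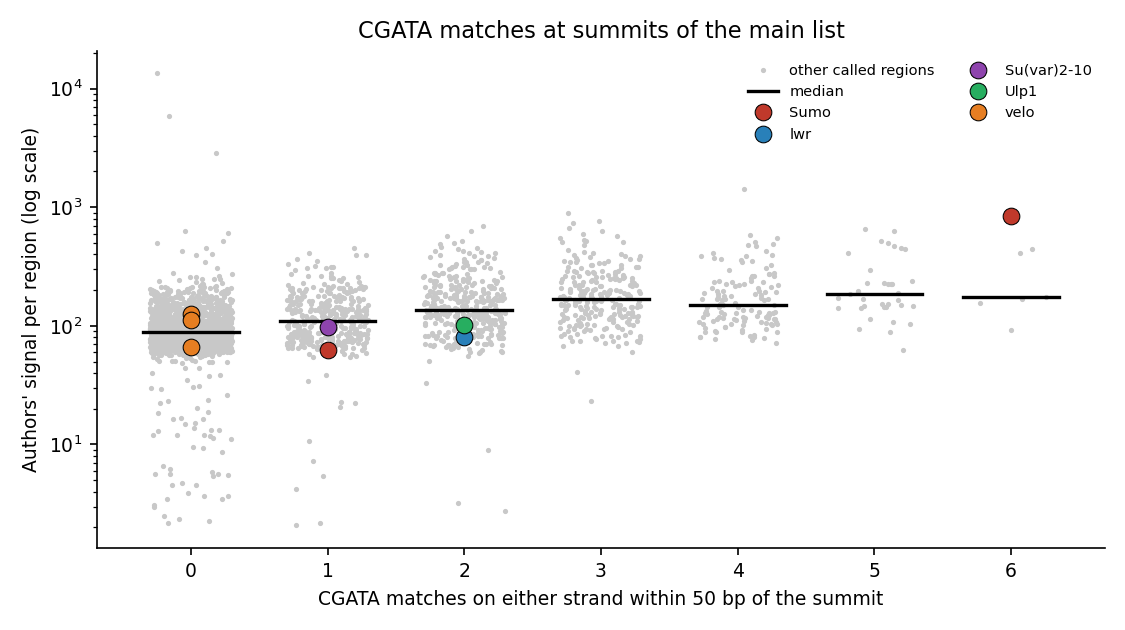
Signal of main-list regions (vertical axis, the authors' value, log scale) by the number of CGATA matches, counted on both strands, at most 50 bp from the summit (horizontal axis); grey points are regions, spread sideways for legibility, black bars are medians, and coloured points are regions of SUMO pathway genes. Sumo, noted beforehand for its high signal, lies at 6 matches and 849.6, and the velo regions have 0 matches.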

How the data were processed

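The deposited files are lists of called regions on dm6, per the labels, of 2 kinds: ranked lists with an IDR for each region, and thresholded lists of those that passed. There are lists for each replicate, for pooled reads and for the comparison between replicates (the main list). Which aligner and peak caller were used is not given in the sources used here. Signal values were taken as the authors deposited them, on a scale the files do not state, and serve only for description and for ranks inside 1 list. The deposited ranked lists also carry a −log10 global IDR, whose lowest value among the regions kept was 2.00 in each list. No counts are given, so depth and its precision are unknown.

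Starts came from Ensembl release 115, annotated on that assembly, and sequence from RefSeq. All 7 genes matched by symbol. In the other lists, CG12717 was found as pira and Nae1 as APP-BP1. Summits were assigned to starts within 1 kb. Exact matches were counted on both strands within 50 bp of summits and starts. The 8-base sequences were the 5 with the largest difference in share between summits and flanks 100 to 150 bp away, over regions outside the pathway. Values for a region in a replicate are those of its overlapping region in that replicate's ranked list, with rank from the thresholded list.

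The members and lists were chosen with earlier results of these data known. The genes named are the 7 members, list members with a region, genes whose starts lie nearer to or within 500 bp of a member summit, and the genes of the 3 regions above and below Sumo. Some list members with a region are not reported here by name. cerv, pira, Rad60, APP-BP1, Uba4, Atg7 and the neighbours Srlp, Cds, Sbds and Sec20 were named after their values were seen. No test was made. Alternatives were other lists, windows, signal limits and assignments. Python 3.11.15, pandas 2.3.3 and numpy 2.4.6 were used, and the assignment and motif functions were tested on simulated data.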

Additional observations from a re-analysis of the deposited data

How the results depend on the processing

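Each count of genes with a region is given beside the share of all protein-coding genes at the same setting. Of the 7 SUMO pathway genes, Sumo included, 5 had a region in the main list (20.6% of all genes), with the pooled list (27.3%), with windows of 500 bp (18.0%) and 2 kb (24.5%) and with the nearest start only (14.6%). The count ranged from 3 to 5 when either replicate was left out. It was 3 without replicate 1, where lwr and Ulp1 were lost (12.7%), and 5 without replicate 2 (21.9%). Among regions with a signal above the list median it was 2 (Sumo and velo), beside 12%. Sumo was noted for its high signal, so only velo remains at that setting without it, and nothing is read from the count. For the other SUMO pathway genes, 3 of 9 in the main list (20.6% of all genes), the pooled list gave 5 (27.3%). Leaving out a replicate gave 3 without replicate 1 (12.7%) and 5 without replicate 2 (21.9%). With the nearest start only, 2 were left, without dgrn (14.6%). For the 17 genes of other ubiquitin-like systems, 9 in the main list (20.6%), 2 (Nedd8 and Ufc1) had a signal above the median, a share close to the 12% of all genes. The other alternatives gave from 7 (without replicate 1, beside 12.7%) to 10 (with a window of 2 kb, beside 24.5%). The genes with 1 of the 8-base sequences most in excess at a summit, 4 in the main list, ranged from 2 to 4 when either replicate was left out. velo was added within 100 bp of a summit and over whole regions, which gave 5 each. The share of all regions at these wider settings is not given here, so nothing is read from the addition. The Sumo region was above 99.6% to 99.9% of regions in all lists and among regions within 500 bp of a start. No paired analysis was possible because the series holds 1 group. With no counts in the files, depth cannot be weighed.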

Other observations

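The share of genes with a region in the main list was higher at starts with more CGATA matches. For each gene the start with the most matches within 50 bp was used. A region was present for 13.8% of the 9733 genes with 0 matches, 25.2% of the 2306 with 1, 46.9% of the 1122 with 2, 49.8% of the 536 with 3, 59.4% of the 207 with 4 and 68.3% of the 41 with 5 or more. Sumo is among the last of these, with 6. lwr and Ulp1 have 2 matches each, Su(var)2-10 and velo have 1, and Aos1 and Uba2, the genes without a region, have 0. The match at velo lies at its upstream start, where the called summit is 362 bp away. The search was chosen after the data had been seen. CGATA came from sequences in excess at summits of this same list, where 2188 of 2752 regions lay within 500 bp of a start. A rise in the share was therefore partly built in. Genes with more annotated starts also had more chances of both a match and a region. The shares are descriptions across genes, with no test, and nothing is read from the order of the members.

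The GC content of the sequence within 50 bp of the summit ranged among the member regions from 35.6% at the weaker Sumo region to 67.3% at the velo region in a coding exon. It was 42.6% at the stronger Sumo region, 41.6% at lwr, 47.5% at Ulp1 and 57.4% at Su(var)2-10, where the median of the main list was 47.5%. The highest value was above that of 99.1% of regions.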
